A study of Homo sapiens with 18 samples.

Results

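ZMYND8 and 9 genes of the chromatin machinery that it works with were followed through 9 conditions of the breast cancer cell line MDA-MB-231. The 10 genes were chosen by name, as readers, demethylases, NuRD subunits and the PRC2 methyltransferase, and they are 10 of 60603 genes in the deposited count tables. They are ZMYND8, its relative ZMYND11, the histone H3K4 demethylases KDM5A, KDM5B and KDM5C, the NuRD genes CHD4, HDAC1, HDAC2 and GATAD2A, and EZH2. All 10 were found in both tables and all 10 passed the filter on low counts in both, so none is missing from the values given here.

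The study asked how ZMYND8 affects the response of breast cancer cells to a low dose of the chemotherapeutic drug doxorubicin, which damages DNA. Poly(A) RNA was sequenced in 18 libraries, 2 for each condition, described as biological replicates. In the inducible experiment, ZMYND8 cDNA with a FLAG tag or GFP cDNA was carried by the lentiviral vector pInducer20 in cells selected with G418. All 12 of these libraries came from cells given 250 ng/mL doxycycline, which switches the vector on, and each line was sequenced without doxorubicin and after 6 h and 48 h of 0.6 µM doxorubicin. These groups are called the GFP line and the ZMYND8 line. In the transient experiment, the groups were control cells, control cells given 0.6 µM doxorubicin for 48 h, and cells that carry the label of FLAG-ZMYND8 overexpression and were given the same drug. The vehicle and the empty vector are described for the transient experiment as a whole, and the control libraries carry only the label untreated. A difference between the 2 inducible lines and an effect of ZMYND8 cannot be told apart, because each construct is represented by 1 line. Each line has a single untreated group for both times of doxorubicin, so the drug and the time in culture cannot be fully told apart. The counts sum the endogenous gene and any transgene cDNA, so the ZMYND8 level of the ZMYND8 line does not tell them apart either.

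ZMYND8 reads chromatin. Its PHD finger, bromodomain and PWWP domain lie side by side and bind modified histone tails, and its MYND domain binds other proteins. It is known to bring the H3K4 demethylase KDM5C to chromatin and to bind the NuRD complex through GATAD2A. KDM5 enzymes remove methyl groups from lysine 4 of histone H3, a mark of active promoters and enhancers. NuRD joins a nucleosome remodeller of the CHD family to the deacetylases HDAC1 and HDAC2. EZH2 is the catalytic subunit of PRC2, which methylates lysine 27 of histone H3 at silenced genes, and its expression in many tissues follows cell division. ZMYND11 is a close relative with the same arrangement of domains that reads lysine 36 methylation on the histone variant H3.3.

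The promoters of EZH2 and ZMYND8 are shown because these are the members with the largest rise with doxorubicin and the largest fall with it in the GFP line. They are the windows from 250 bases before to 50 bases after the RefSeq start site (GRCh38.p14), printed 5′ to 3′ on the strand of the gene. The EZH2 window printed is chr7:148884242-148884541 (minus strand) and the ZMYND8 window printed is chr20:47356650-47356949 (minus strand). Capitals mark matches to the E2F letters (TTTCCCGC, TTTGGCGC, TTTCGCGC or TTTGCCGC) and to the CCAAT box (CCAAT), each searched on both strands, so that ATTGG is a CCAAT box on the other strand.
EZH2: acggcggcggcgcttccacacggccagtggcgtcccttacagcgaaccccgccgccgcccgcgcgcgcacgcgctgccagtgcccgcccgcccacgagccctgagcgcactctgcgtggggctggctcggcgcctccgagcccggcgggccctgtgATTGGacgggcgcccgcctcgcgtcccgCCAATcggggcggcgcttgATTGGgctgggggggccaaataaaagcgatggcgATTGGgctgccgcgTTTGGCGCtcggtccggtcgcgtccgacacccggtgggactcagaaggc
ZMYND8: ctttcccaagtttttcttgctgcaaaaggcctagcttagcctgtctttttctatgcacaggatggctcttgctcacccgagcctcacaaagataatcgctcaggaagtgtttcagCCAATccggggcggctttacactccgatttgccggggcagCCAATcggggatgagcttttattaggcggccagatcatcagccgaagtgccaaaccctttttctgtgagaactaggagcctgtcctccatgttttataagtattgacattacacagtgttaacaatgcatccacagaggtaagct
The printed EZH2 window held 1 E2F match, TTTGGCGC, which begins at position 2 with the start site counted as 1, and 4 CCAAT boxes. The printed ZMYND8 window held 2 CCAAT boxes and no E2F match. The other RefSeq windows of these genes, chr7:148883436-148883735 for EZH2 and chr20:47356387-47356686 for ZMYND8, held neither motif. EZH2 was the only member with an E2F match in any of the 20 RefSeq windows of the 10 genes. Over 35116 windows of all genes, 3.31% held the E2F letters and 34.6% held a CCAAT box. A match is a run of letters and was not tested for binding.

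Depth was 18300628 to 23724398 counts per library in the inducible experiment and 5729294 to 24713822 in the transient one. A single transient library, the second doxorubicin replicate, held the largest of these totals, and the other 5 had a total of at most 5972396. The basal-like mesenchymal markers were present in every library (summed level 2318 to 4522 TPM, a unit of transcript level per exon length, over all 18), and of 8 luminal markers 5 reached 1 TPM (summed level 679 to 1109 TPM in the inducible libraries), among them the keratins KRT8 and KRT18, whereas the hormone receptors ESR1 and PGR stayed at or below 0.176 and 0.203 TPM. The second doxorubicin library and the second FLAG-ZMYND8 library of the transient experiment were closer to each other than the other 14 transient pairs were. The ratio of chi-square to its degrees of freedom was 1.39 against 9.71 to 55.6. For replicates of the same group this ratio was 10.7 to 22.7 in the transient experiment and 2.19 to 5.21 in the inducible one. Whether these second libraries share material was not tested, and the transient calls and ZMYND8 values are given also without both. In gene pairs on opposite strands, antisense genes held 0.0632 to 0.102 of the read density of their sense partners in the inducible libraries and 1.46 to 1.65 of it in the transient libraries, so transient counts do not tell the strands apart.

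Levels are given for each library as CPM, the count of a gene relative to the TMM-scaled total of the library. Changes are log2 fold changes with their standard error from edgeR's quasi-likelihood test, and a gene is called when its adjusted p is at most 0.05 over all genes tested. Comparisons between genes use TPM, which divides by exon length, here all annotated exon bases of a gene. In bulk RNA, a change in the share of cells that express a gene and a change per cell cannot be told apart. At 48 h the scaling matters, since total counts alone moved the median log2 change of all genes from 0.03 to 0.27 in the GFP line and from 0.05 to 0.25 in the ZMYND8 line. The comparisons below share control libraries with each other, and their values are set side by side and not taken as independent of each other.

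In the GFP line at 6 h of doxorubicin, ZMYND8, KDM5B and HDAC1 were lower than untreated, and ZMYND11, HDAC2, GATAD2A and EZH2 were higher. The 4 higher genes compare with 22.1% of all 18801 genes tested that were called higher, and the 3 lower genes with 25.8% called lower. The median log2 change was -0.02 for the 10 genes and -0.05 for all genes. At 48 h, 3 members were higher (HDAC1, GATAD2A and EZH2; 32.4% of all genes) and 6 were lower (ZMYND8, ZMYND11, all 3 KDM5 genes and HDAC2; 31.8% of all genes). The median of the members was -0.26 and that of all genes 0.03. With total counts alone, 3 members remained higher and 3 lower (ZMYND8, ZMYND11 and KDM5B). From 6 h to 48 h, 3 members rose (32.0% of all genes) and 6 fell (30.2%), with medians of -0.20 and 0.04, and with total counts alone 3 rose and 2 fell.

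**Figure D1:**
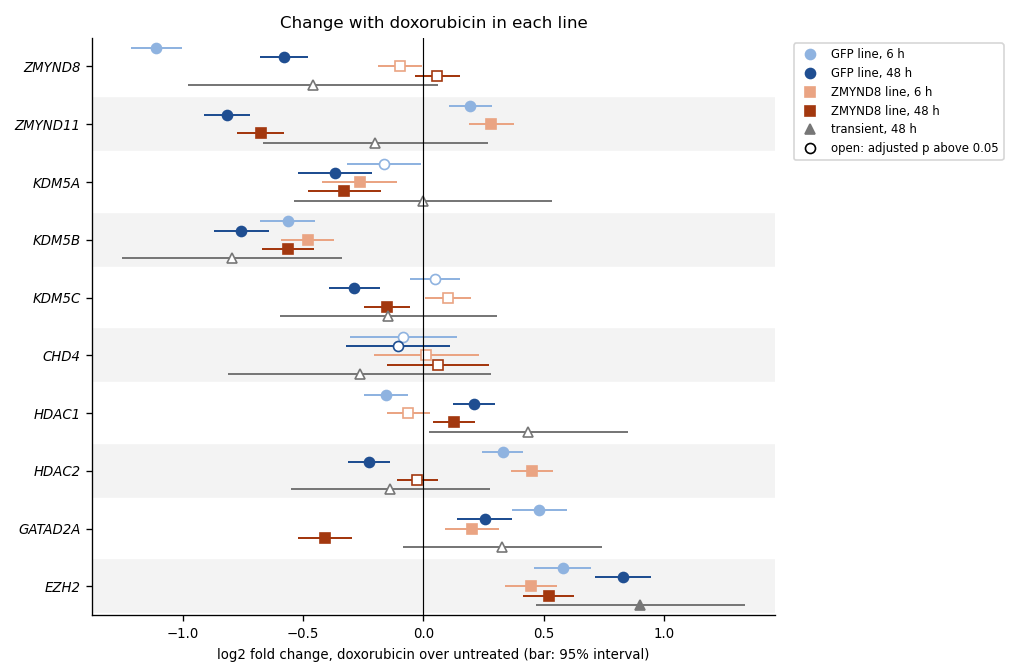
Change with doxorubicin of each member, as the log2 fold change of treated over untreated cells with its 95% interval, in the GFP line (circles), the ZMYND8 line (squares) and the transient control cells (triangles). Open symbols have an adjusted p above 0.05. EZH2 lies to the right of 0 in all 5 comparisons and ZMYND8 is called lower in the GFP line alone, and with total counts HDAC2 moved to 0.02 at 48 h in the GFP line and to 0.18 in the ZMYND8 line.

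In the ZMYND8 line, 4 members were higher at 6 h (ZMYND11, HDAC2, GATAD2A and EZH2; 21.8% of all genes) and 2 lower (KDM5A and KDM5B; 19.0%), and with total counts alone 3 were higher and 4 lower. At 48 h, 2 were higher (HDAC1 and EZH2; 31.6%) and 5 lower (ZMYND11, the 3 KDM5 genes and GATAD2A; 30.8%), and with total counts alone 5 were higher and 3 lower. Between 6 h and 48 h, 2 rose (30.2%) and 4 fell (31.3%), and with total counts alone 6 rose and 3 fell. The member medians were 0.06, -0.09 and -0.07, against -0.01, 0.05 and 0.04 for all genes.

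Between the lines, ZMYND8, KDM5C, EZH2, GATAD2A and HDAC1 were higher in untreated ZMYND8 cells and ZMYND11 was lower. These 5 and 1 genes stand beside 28.7% and 29.5% of all genes called higher and lower. At 6 h of doxorubicin, 6 members were higher (29.0% of all genes) and 1 lower (26.6%), and at 48 h 5 were higher (28.4%) and 1 lower (31.6%). ZMYND11 was the lower gene in all 3 comparisons, and ZMYND8, KDM5C and EZH2 were among the higher genes in all 3. The member medians were 0.11, 0.20 and 0.16, against 0.00, 0.00 and -0.04 for all genes. These counts and medians include ZMYND8, the gene that the vector carries in the ZMYND8 line. Its higher level there follows from the design and is not a result about the members.

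The test of whether doxorubicin acted differently in the 2 lines (the interaction) called ZMYND8 higher and GATAD2A lower at 6 h, where 7.86% of all genes were called higher and 5.52% lower. At 48 h it called ZMYND8 and HDAC2 higher (12.7% of all genes) and GATAD2A and EZH2 lower (15.8%). A higher value means a less negative or more positive response in the ZMYND8 line than in the GFP line. The ZMYND8 calls rest on counts that include any transgene RNA in the ZMYND8 line.

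**Figure D2:**
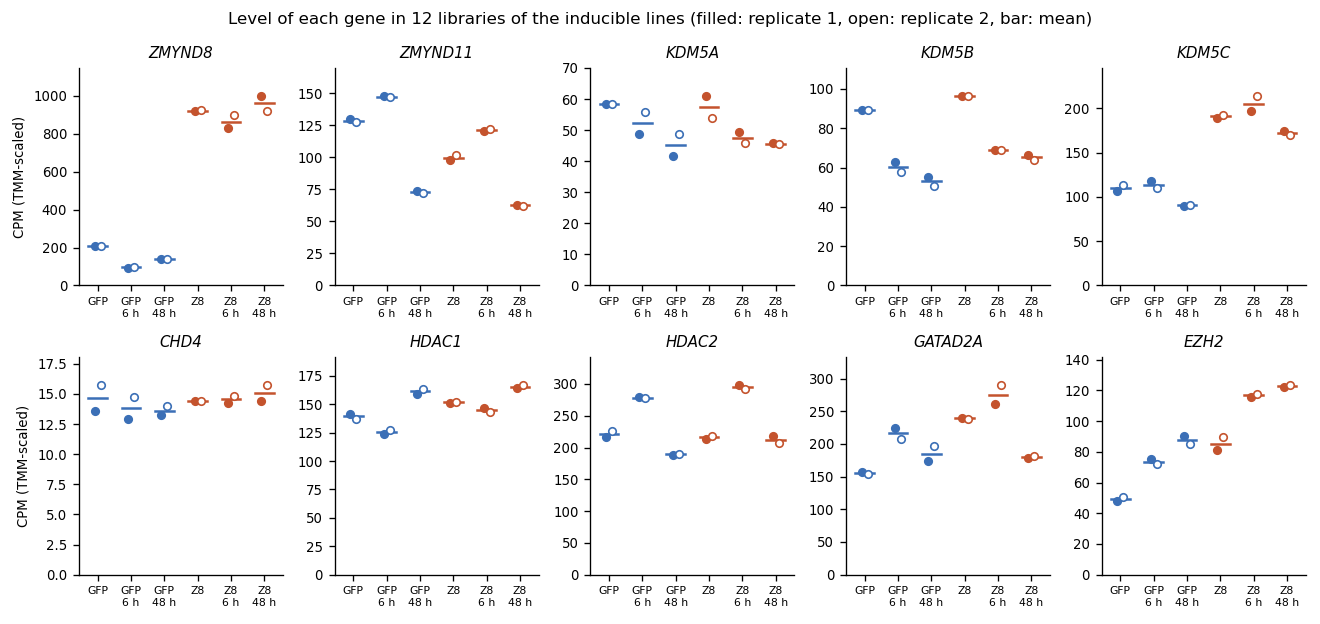
Level of each member (TMM-scaled CPM, vertical axis from 0) in the 12 libraries of the inducible lines, by line and by hours of doxorubicin. Filled points are replicate 1, open points replicate 2 and bars their mean, with GFP cells in blue and ZMYND8 cells (Z8) in red. ZMYND8 lies at 828 CPM or more in every ZMYND8 library and at 209 CPM or less in every GFP library.

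ZMYND8 itself (ENSG00000101040.19, chr20:47209214-47356889, minus strand, hg38) fell with doxorubicin in the GFP line and did not pass the test for a fall in the ZMYND8 line. In the GFP line its level was 209 and 208 CPM without doxorubicin, 93.7 and 99.3 CPM at 6 h, and 138 and 141 CPM at 48 h. The 3 groups did not overlap, with the lowest level at 6 h and a partial return at 48 h. The log2 change was -1.11 ± 0.05 at 6 h (adjusted p = 2.59e-16), a level 0.463 of untreated, and -0.58 ± 0.05 at 48 h (adjusted p = 2.48e-11), a level 0.670 of untreated. Between 6 h and 48 h ZMYND8 rose by 0.53 on the log2 scale (adjusted p = 5.18e-10).

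In the ZMYND8 line, ZMYND8 counted 921 and 926 CPM without doxorubicin, 828 and 897 CPM at 6 h, and 999.9 and 923 CPM at 48 h. Every ZMYND8 library lay above every GFP library, and the untreated and 48 h groups of the ZMYND8 line overlapped. The line difference was 2.15 ± 0.05 on the log2 scale untreated (adjusted p = 1.16e-23), 3.16 ± 0.05 at 6 h and 2.79 ± 0.05 at 48 h, or 4.43-fold, 8.94-fold and 6.89-fold. The doxorubicin change within the ZMYND8 line was -0.10 (95% interval -0.19 to -0.01, adjusted p = 0.0705) at 6 h and 0.06 (-0.03 to 0.15, adjusted p = 0.236) at 48 h. The first of these was called with DESeq2 and RLE factors (-0.11 in both), with a minimum of 10 counts in every library (-0.12) and without ZMYND8 6 h replicate 2 (-0.15). Total counts alone called both (-0.18 and 0.26), and the minimum of 10 counts also called the second (0.15). The responses of the lines differed by 1.01 ± 0.07 at 6 h (adjusted p = 4.24e-11) and 0.64 ± 0.06 at 48 h (adjusted p = 1.21e-08). A log2 response is measured against a higher starting level in the ZMYND8 line, which includes any transgene RNA.

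By TPM, untreated GFP cells held HDAC1 (119 TPM), ZMYND8 (92.1), ZMYND11 (81.9), GATAD2A (71.7), HDAC2 (48.7), KDM5C (42.6), EZH2 (36.8), KDM5A (16.3) and KDM5B (11.6) in this order, with CHD4 left out because its count is incomplete. The order depends on the exon lengths used, such as 3966 bases for HDAC1 and 15333 for HDAC2. By CPM, HDAC2 lay above HDAC1 in untreated GFP cells (mean 222 against 140). In untreated ZMYND8 cells ZMYND8 came first at 409.7 TPM, followed by HDAC1 at 129 and GATAD2A at 111 TPM. The ratio of ZMYND8 to its partner KDM5C in TPM was 2.24 and 2.09 in untreated GFP cells, 0.912 and 1.03 at 6 h, and 1.77 and 1.77 at 48 h. It was 5.56 and 5.50 in untreated ZMYND8 cells, 4.82 and 4.80 at 6 h, and 6.55 and 6.23 at 48 h, the highest ratio of the 6 conditions. Both transcripts were thus at about equal levels in GFP cells at 6 h of doxorubicin, the lowest ratio of the 6 conditions. In the ZMYND8 line the ZMYND8 counts include any transgene cDNA, while the TPM divides by all 7625 annotated exon bases. The TPM of ZMYND8 and its ratio to KDM5C in that line may therefore not be on the scale of the GFP line.

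The genes whose pattern over the 5 other conditions, relative to untreated GFP cells, lay closest to that of ZMYND8 were SIK1, TENT5A and HNF4G, at root mean square distances of 0.344, 0.412 and 0.418 on the log2 scale among 13142 genes compared. None of the 3 came as close as the nearest genes of ZMYND11 (TM9SF3, at 0.0828) and of EZH2 (POLR2D, at 0.0757), the other members that moved by at least 1 on this scale. The likeness is a description over 6 conditions.

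ZMYND11 (ENSG00000015171.19, chr10:134465-254637, plus strand) rose at 6 h and fell at 48 h in both lines, and it was lower in ZMYND8 cells at every time. In the GFP line it measured 130.0 and 127 CPM untreated, 148 and 147 CPM at 6 h, and 74.1 and 72.0 CPM at 48 h. In the ZMYND8 line it measured 98.1 and 102 CPM untreated, 121 and 122 CPM at 6 h, and 63.0 and 62.0 CPM at 48 h. No neighbouring groups overlapped in the order of all 6 conditions, from ZMYND8 cells at 48 h to GFP cells at 6 h.

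The rise of ZMYND11 at 6 h was 0.20 ± 0.04 (adjusted p = 0.000311) in the GFP line and 0.28 ± 0.04 (adjusted p = 5.05e-06) in the ZMYND8 line. At 48 h it changed by -0.82 ± 0.04 (adjusted p = 3.82e-15) in the GFP line, to 0.568 of untreated, and by -0.68 ± 0.05 (adjusted p = 5.09e-13) in the ZMYND8 line, to 0.626 of untreated. The responses were not called different, with interactions of 0.09 (95% interval -0.04 to 0.21) at 6 h and 0.14 (0.01 to 0.27, adjusted p = 0.0984) at 48 h. ZMYND11 was lower in ZMYND8 cells by log2 values of -0.37 ± 0.04, -0.28 ± 0.04 and -0.22 ± 0.05, untreated, at 6 h and at 48 h.

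Among the H3K4 demethylases, KDM5C rose with the line and KDM5B fell with the drug. KDM5C (ENSG00000126012.11, chrX:53191321-53225422, minus strand), a KDM5 enzyme known to bind ZMYND8, measured 107 and 114 CPM in untreated GFP cells and 189 and 193 CPM in untreated ZMYND8 cells. At 6 h it measured 118 and 110.5 CPM against 197 and 214 CPM, and at 48 h 89.8 and 91.0 CPM against 175 and 169.7 CPM. Every ZMYND8 library lay above every GFP library. The line difference was 0.79 ± 0.05 untreated (adjusted p = 5.02e-14), 0.85 ± 0.05 at 6 h (adjusted p = 1.6e-14) and 0.93 ± 0.05 at 48 h (adjusted p = 2.11e-15), or 1.73-fold, 1.80-fold and 1.90-fold.

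With doxorubicin, KDM5C changed by 0.05 (95% interval -0.05 to 0.15) at 6 h and -0.29 ± 0.05 at 48 h (adjusted p = 1.39e-05) in the GFP line. With total counts alone the latter was -0.04 and not called. In the ZMYND8 line it changed by 0.10 (0.01 to 0.20, adjusted p = 0.0731) at 6 h and by -0.15 ± 0.05 at 48 h (adjusted p = 0.00527), where total counts alone gave 0.05 and a minimum of 10 counts in every library lost the call (-0.06). The 6 h value was called without ZMYND8 6 h replicate 1 (0.17). Its interaction at 48 h was 0.14 (-0.00 to 0.27, adjusted p = 0.138).

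KDM5B (ENSG00000117139.17, chr1:202724495-202809470, minus strand), another demethylase of the family that is often abundant in breast tumours, was lower than untreated at both times of doxorubicin in both lines, also with total counts alone. In GFP cells it measured 89.4 and 89.2 CPM untreated, 62.8 and 58.0 CPM at 6 h, and 55.3 and 50.5 CPM at 48 h. In ZMYND8 cells it measured 96.2 and 96.4 CPM, then 69.0 and 68.9 CPM, then 66.5 and 63.8 CPM. All treated libraries lay below all untreated ones, and the 6 groups did not overlap. The changes in the GFP line were -0.56 ± 0.05 (adjusted p = 1.12e-09) and -0.76 ± 0.05 (adjusted p = 1.21e-12), to 0.677 and 0.592 of untreated. Those in the ZMYND8 line were -0.48 ± 0.05 (adjusted p = 2.01e-08) and -0.56 ± 0.05 (adjusted p = 2.64e-10). KDM5B was higher in ZMYND8 cells by 0.19 ± 0.05 at 6 h (adjusted p = 0.00423, lost without GFP 6 h replicate 2, where it was 0.13) and 0.30 ± 0.05 at 48 h (adjusted p = 2.23e-05), and the line difference of 0.11 untreated was not called (adjusted p = 0.0685).

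KDM5A (ENSG00000073614.12, chr12:280129-389454, minus strand), which shares the catalytic domains of the family, moved less. It ranged from 41.6 to 61.0 CPM over the 12 inducible libraries, and neighbouring groups overlapped throughout the order of conditions. At 48 h it changed by -0.37 ± 0.07 in GFP cells (adjusted p = 8.01e-05) and -0.33 ± 0.07 in ZMYND8 cells (adjusted p = 0.000301), both -0.12 and not called with total counts alone. Its fall of -0.27 ± 0.07 at 6 h in ZMYND8 cells was lost without ZMYND8 replicate 1 (-0.18) or ZMYND8 6 h replicate 2 (-0.21). No line difference was called, with intervals of -0.18 to 0.12 untreated, -0.29 to 0.02 at 6 h and -0.14 to 0.16 at 48 h. The difference at 6 h of -0.13 was called without GFP 6 h replicate 1 (-0.23) and with no filter (-0.16).

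Of the summed TPM of the 3 KDM5 genes, KDM5C made up 59.6% and 61.2% in untreated GFP cells and 71.2% and 73.0% in untreated ZMYND8 cells. Its share in treated GFP cells was 63.5% to 67.6% and in treated ZMYND8 cells 75.8% to 79.2%. The 6 ZMYND8 libraries thus had the higher KDM5C share in every case. The size of the shares depends on exon lengths of 25882 bases for KDM5B, 12091 for KDM5A and 8727 for KDM5C. By CPM, KDM5C and KDM5B were closer in untreated GFP cells (mean 110 and 89.3). Over all 7 H3K4 demethylases, 4 were higher and 3 lower at 48 h in GFP cells (median 0.20), beside 32.4% and 31.8% of all genes. With total counts alone 4 were higher and 1 lower. KDM1A, the demethylase of the CoREST complex, was 0.43 ± 0.05 higher in untreated ZMYND8 cells (adjusted p = 6.2e-09) and its response at 48 h differed by -0.55 ± 0.06 (adjusted p = 1.8e-07).

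**Figure D3:**
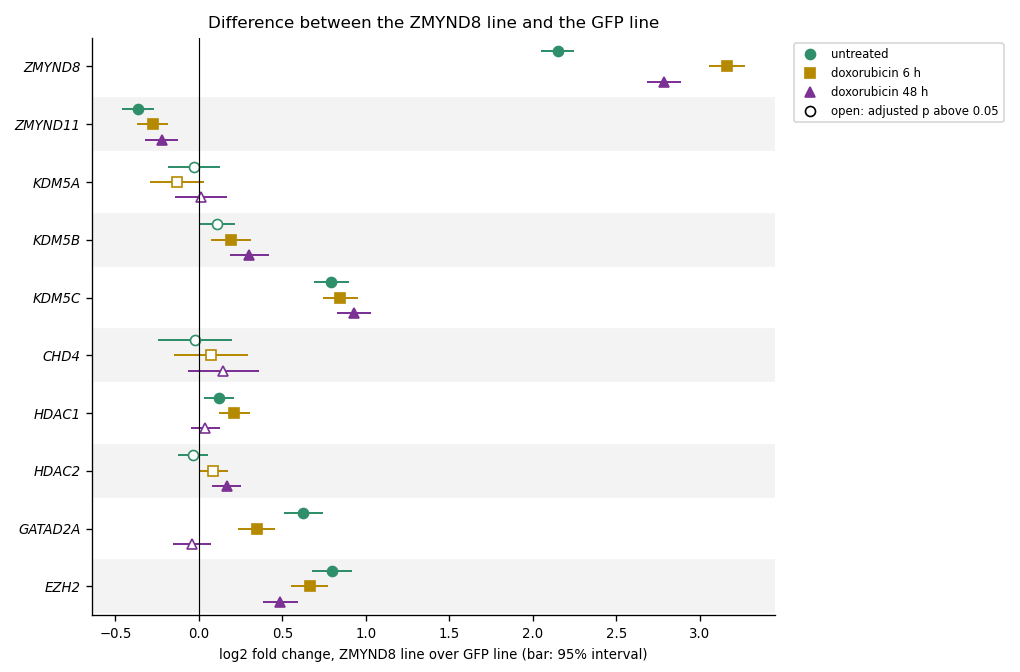
Difference between the ZMYND8 line and the GFP line for each member, as a log2 fold change with its 95% interval, untreated (circles) and after 6 h (squares) and 48 h (triangles) of doxorubicin. Open symbols have an adjusted p above 0.05. KDM5C lies between 0.79 and 0.93 at all times, whereas GATAD2A goes from 0.63 untreated to -0.04 at 48 h.

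Of the 4 NuRD members, GATAD2A had the largest difference between the untreated lines, and it had none that was called at 48 h. GATAD2A (ENSG00000167491.17, chr19:19385826-19508931, plus strand) is the subunit through which NuRD is known to meet ZMYND8. In GFP cells it measured 157 and 153 CPM untreated, 225 and 208 CPM at 6 h, and 174 and 196 CPM at 48 h. In ZMYND8 cells it measured 239.8 and 239 CPM untreated, 260.5 and 289.9 CPM at 6 h, and 179 and 181 CPM at 48 h. The treated GFP libraries lay above the untreated ones at both times, whereas in the ZMYND8 line the 48 h libraries lay below the untreated ones and within the range of the GFP line at 48 h.

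GATAD2A rose by 0.48 ± 0.05 at 6 h (adjusted p = 2.23e-08) and 0.26 ± 0.05 at 48 h (adjusted p = 0.00018) in the GFP line, and in the ZMYND8 line it rose by 0.20 ± 0.05 at 6 h (adjusted p = 0.00237) and changed by -0.41 ± 0.05 at 48 h (adjusted p = 1.43e-07), to 0.753 of untreated. The line difference was 0.63 ± 0.05 untreated (adjusted p = 8.9e-11), 0.34 ± 0.05 at 6 h (adjusted p = 2.59e-06) and -0.04 at 48 h (95% interval -0.15 to 0.07, adjusted p = 0.535). The responses differed by -0.28 ± 0.07 at 6 h (adjusted p = 0.0117) and -0.67 ± 0.08 at 48 h (adjusted p = 1.03e-07). The rise at 6 h in ZMYND8 cells was lost without ZMYND8 6 h replicate 2 (0.13) and with total counts alone (0.12). The difference of the responses at 6 h was no longer called without GFP 6 h replicate 1 or ZMYND8 6 h replicate 1 (log2 values of -0.22 to -0.20, highest adjusted p = 0.0808).

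HDAC2 (ENSG00000196591.12, chr6:113933028-114011308, minus strand), one of the deacetylases at the core of NuRD, rose at 6 h in both lines. It measured 217 and 226 CPM in untreated GFP cells, 279.5 and 277 CPM at 6 h, and 188 and 189.9 CPM at 48 h. In ZMYND8 cells it measured 214 and 218 CPM untreated, 298 and 293 CPM at 6 h, and 218 and 207 CPM at 48 h. The 6 h libraries were the highest in each line. The rise at 6 h was 0.33 ± 0.04 (adjusted p = 9.24e-08) in GFP cells and 0.45 ± 0.04 (adjusted p = 5.5e-10) in ZMYND8 cells. At 48 h the change was -0.23 ± 0.04 in GFP cells (adjusted p = 2.02e-05), which total counts alone turned to 0.02, and -0.03 in ZMYND8 cells (95% interval -0.11 to 0.06), which they turned to 0.18. The responses at 48 h differed by 0.20 ± 0.06 (adjusted p = 0.00793), a call lost without GFP replicate 2, ZMYND8 replicate 1 or ZMYND8 48 h replicate 1 (0.17 in each, highest adjusted p = 0.0623).

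HDAC1 (ENSG00000116478.12, chr1:32292083-32333635, plus strand), the partner deacetylase of HDAC2, had its lowest level at the time when HDAC2 had its highest. It measured 142 and 137 CPM in untreated GFP cells, 124 and 127 CPM at 6 h, and 159 and 164 CPM at 48 h, and in ZMYND8 cells 151 and 152 CPM, 147 and 144 CPM, and 164 and 167 CPM. In each line the 6 h libraries were the lowest and the 48 h libraries the highest. The GFP line changed by -0.16 ± 0.04 at 6 h (adjusted p = 0.0029) and rose by 0.21 ± 0.04 at 48 h (adjusted p = 6.1e-05). The ZMYND8 line changed by -0.06 at 6 h (95% interval -0.15 to 0.02) and rose by 0.13 ± 0.04 at 48 h (adjusted p = 0.00749). HDAC1 was 0.12 ± 0.04 higher in untreated ZMYND8 cells (adjusted p = 0.0148), a call that was lost without GFP replicate 2 or ZMYND8 replicate 2 (0.10 and 0.11). The call at 6 h in GFP cells was lost without GFP replicate 1 (-0.13), and that at 48 h in ZMYND8 cells without ZMYND8 replicate 1 or 2 or ZMYND8 48 h replicate 2 (0.10 to 0.12).

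CHD4 (ENSG00000111642.15, chr12:6570082-6614524, minus strand), the remodelling ATPase of NuRD, ranged from 12.9 to 15.7 CPM over the 12 inducible libraries, and no comparison called it. With total counts alone it was called higher in ZMYND8 cells at 48 h against untreated (0.27) and against 6 h (0.34). The 95% interval of its change in GFP cells was -0.30 to 0.13 at 6 h and -0.32 to 0.11 at 48 h. Another annotated gene on the same strand covers 46.9% of its exon bases and had 0 counts in every library, and read pairs that overlap both genes were not counted, so the CHD4 level is an underestimate of unknown size and it was not ranked against the other members.

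The wider NuRD list of 15 genes, the 4 members included, split in both directions. At 6 h in GFP cells 5 were higher and 4 lower (median -0.08), where 22.1% and 25.8% of all genes were. At 48 h 7 were higher and 3 lower (median 0.19), beside 32.4% and 31.8% of all genes, against 10 and 2 with total counts alone (median 0.43). RBBP4, a histone-binding subunit shared with PRC2, rose by 0.61 ± 0.04 at 48 h and MTA2 by 0.36 ± 0.04, while MBD2, the methyl-CpG reader, changed by -0.76 ± 0.07 and MTA3 by -0.62 ± 0.07. Between the untreated lines 7 were higher in ZMYND8 cells and 4 lower (median -0.01), beside 28.7% and 29.5% of all genes. MTA3 at -1.23 ± 0.08 and CDK2AP1 at -0.99 ± 0.06 were the lowest. The interaction at 48 h called 1 gene higher, HDAC2, and 3 lower (median -0.00), beside 12.7% and 15.8% of all genes. GATAD2A was the lowest of these 3, followed by MTA1 at -0.46.

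**Figure D4:**
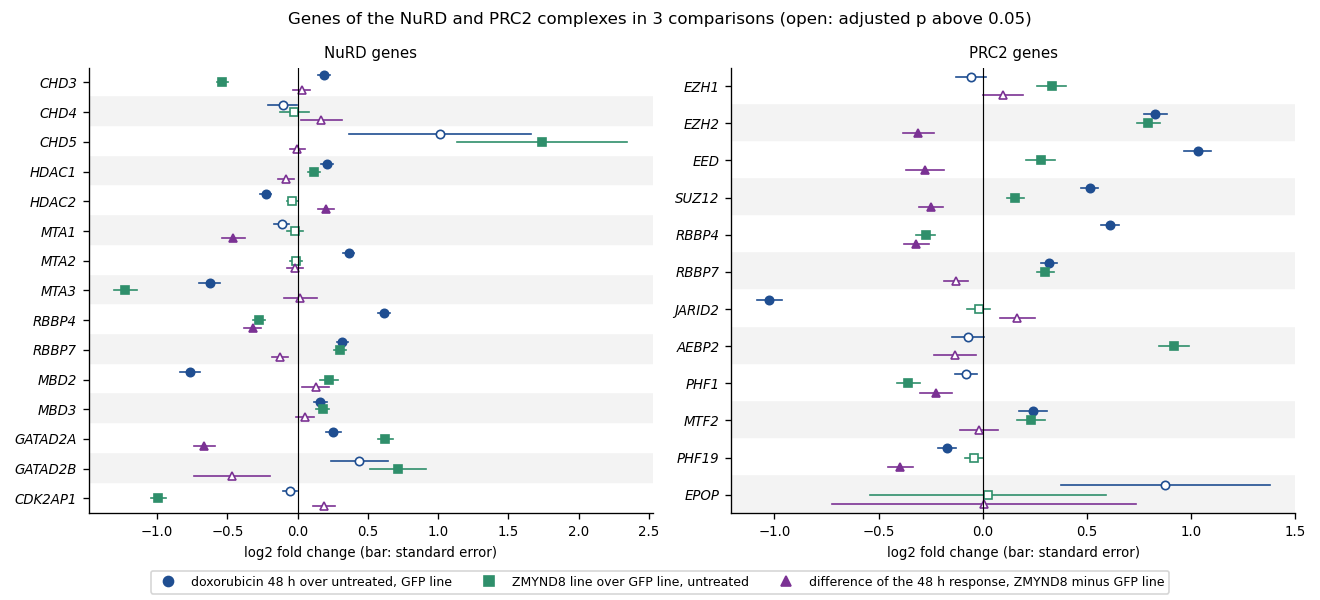
Genes of the NuRD complex (left) and of PRC2 (right) in 3 comparisons, as log2 fold changes with standard errors. Circles give 48 h of doxorubicin over untreated in the GFP line, squares the untreated ZMYND8 line over the untreated GFP line, and triangles the difference of the 48 h response, ZMYND8 line minus GFP line, with open symbols where the adjusted p is above 0.05. At 48 h 6 of 12 PRC2 genes were higher and 2 lower (8 and 1 with total counts alone), beside 32.4% and 31.8% of all genes. The difference of the response was called lower in 6 and higher in 0, beside 15.8% and 12.7% of all genes.

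EZH2 (ENSG00000106462.10, chr7:148807383-148884321, minus strand) was the member that rose in every comparison of doxorubicin with untreated cells. In GFP cells it measured 48.2 and 50.4 CPM untreated, 75.0 and 72.2 CPM at 6 h, and 90.2 and 85.1 CPM at 48 h. In ZMYND8 cells it measured 81.1 and 89.6 CPM untreated, 116 and 118 CPM at 6 h, and 122 and 123 CPM at 48 h. Within each line the 3 groups did not overlap, and untreated ZMYND8 cells overlapped GFP cells at 48 h of doxorubicin.

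EZH2 rose by 0.58 ± 0.06 at 6 h (adjusted p = 1.77e-09) and 0.83 ± 0.05 at 48 h (adjusted p = 2.84e-13) in GFP cells, 1.49-fold and 1.78-fold. In ZMYND8 cells it rose by 0.45 ± 0.05 (adjusted p = 3.6e-08) and 0.52 ± 0.05 (adjusted p = 5.58e-10). It was higher in ZMYND8 cells by 0.80 ± 0.06 untreated (adjusted p = 1.13e-12), 1.73-fold, by 0.66 ± 0.05 at 6 h (adjusted p = 1.34e-11) and by 0.49 ± 0.05 at 48 h (adjusted p = 1.54e-09). The response at 48 h was smaller in the ZMYND8 line by an interaction of -0.31 ± 0.07 (adjusted p = 0.00199), and at 6 h the interaction was -0.13 (95% interval -0.29 to 0.02, adjusted p = 0.291).

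The 18 genes of a proliferation list also rose in GFP cells. Of these, 14 were higher and 1 lower at 6 h (median 0.53), beside 22.1% and 25.8% of all genes. All 18 were higher at 48 h (median 0.95), beside 32.4% of all genes. They were led by the replication licensing factor CDC6 at 2.15 ± 0.05 and the ribonucleotide reductase subunit RRM2 at 2.09 ± 0.04. In untreated ZMYND8 cells 11 were higher and 6 lower (median 0.45), beside 28.7% and 29.5% of all genes. The interaction at 48 h called 17 lower and 0 higher (median -0.69), beside 15.8% of all genes. Their summed level was 2547 to 2632 CPM in untreated GFP cells, 3507 to 3560 CPM at 6 h and 5338 to 5363 CPM at 48 h, and in ZMYND8 cells 3389 to 3396 CPM, 3834 to 3864 CPM and 4380 to 4391 CPM. Untreated and at 6 h, both EZH2 and this summed level were higher in ZMYND8 cells than in GFP cells. At 48 h EZH2 was higher and the summed level lower in ZMYND8 cells. The part of these genes in the EZH2 values was not tested.

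Of 12 PRC2 genes, EZH2 included, 5 were higher and 3 lower at 6 h in GFP cells (median 0.15, beside 22.1% and 25.8% of all genes) and 6 were higher and 2 lower at 48 h (median 0.28, beside 32.4% and 31.8%). With total counts alone the counts at 48 h were 8 and 1. EED, the subunit that reads the methyl mark PRC2 makes, rose from 33.2 and 32.0 CPM to 59.9 and 60.3 CPM at 6 h and 69.9 and 63.5 CPM at 48 h, log2 changes of 0.88 ± 0.07 and 1.03 ± 0.06. JARID2, which helps recruit PRC2, changed by -0.28 ± 0.06 and -1.02 ± 0.06. In untreated ZMYND8 cells 7 were higher and 2 lower (median 0.19), beside 28.7% and 29.5% of all genes. AEBP2, another accessory subunit, was highest at 0.92 ± 0.07. The interaction at 48 h called 6 lower and 0 higher (median -0.18, beside 15.8% and 12.7% of all genes), with PHF19, which binds lysine 36 methylation, at -0.39 ± 0.06 and RBBP4 at -0.32 ± 0.06 the lowest.

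Other genes that write, erase or read the same marks moved in both directions. Of the zinc finger proteins that form a complex with ZMYND8, ZNF532 changed by -0.34 ± 0.08 at 6 h and -1.18 ± 0.08 at 48 h in GFP cells, and it was lower in untreated ZMYND8 cells by a log2 value of -1.39 ± 0.08. ZNF592 and ZNF687 were higher there by 0.51 and 0.54. ZNF532 was at 21.2 and 24.0 CPM in untreated ZMYND8 cells, near the 24.7 and 27.9 CPM of GFP cells at 48 h, and its 48 h response differed between the lines by 1.09 ± 0.12 (adjusted p = 8.7e-08). Of these 3 genes, 0 were higher and 1 lower at 48 h in GFP cells, beside 32.4% and 31.8% of all genes, against 2 and 1 with total counts alone.

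Of 14 H3K4 methyltransferase genes tested, 6 were higher and 6 lower at 48 h in GFP cells (8 and 5 with total counts alone), and for this and the following lists the shares over all genes were 32.4% and 31.8%. SMYD3 changed most, by -1.90 ± 0.11, and KMT2C, which marks enhancers, by -1.36 ± 0.07, whereas ASH2L, a core subunit of these enzymes, rose by 0.51 ± 0.06. Of the H3K27 demethylases, which oppose EZH2, KDM6A was higher in untreated ZMYND8 cells by 1.11 ± 0.06 and the response of KDM6B at 48 h differed by 1.06 ± 0.08 (adjusted p = 1.2e-10). Among the 4 class I deacetylases 1 was higher and 3 lower at 48 h in GFP cells (1 and 0 with total counts alone), and HDAC8 was 0.97 ± 0.13 higher and HDAC3 lower by -0.37 ± 0.05 in untreated ZMYND8 cells. Of 10 CoREST and SIN3 scaffold genes 2 were higher and 5 lower at 48 h (4 and 4 with total counts alone), with TBL1X, a subunit of the NCoR complex, at -1.13 ± 0.06 and SIN3B at -0.91 ± 0.04. Of 15 other readers tested, 5 were higher and 7 lower (5 and 4 with total counts alone).

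Of 7 genes at which the study examined ZMYND8 on chromatin, of which ACTB served as its negative control, 6 could be tested in the inducible lines and TWIST1 did not pass the filter. At 48 h in GFP cells 2 were higher (CD24 and ABCB1) and 4 lower, ACTB among the lower (-0.71 ± 0.06), beside 32.4% and 31.8% of all genes. With total counts alone the counts were 2 and 2. In untreated ZMYND8 cells 3 were higher and 1 lower, beside 28.7% and 29.5% of all genes. CD44, a surface marker of stem-like breast cancer cells, measured 1237 and 1251 CPM in untreated GFP cells, 686 and 674 CPM at 48 h, and 641 and 678 CPM in untreated ZMYND8 cells, log2 differences of -0.87 ± 0.04 and -0.91 ± 0.04. SNAI2, a transcription factor of the epithelial to mesenchymal transition, was 1.29 ± 0.06 higher in untreated ZMYND8 cells. ABCB1, a drug efflux pump, had 0 counts in all libraries without doxorubicin and at 6 h and 0.447 to 0.883 CPM in the 4 libraries at 48 h. It passed the filter only through its 48 h libraries, so against untreated cells it could only be called higher. The study chose these 7 genes, so their counts are not independent evidence of a direction.

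**Figure D5:**
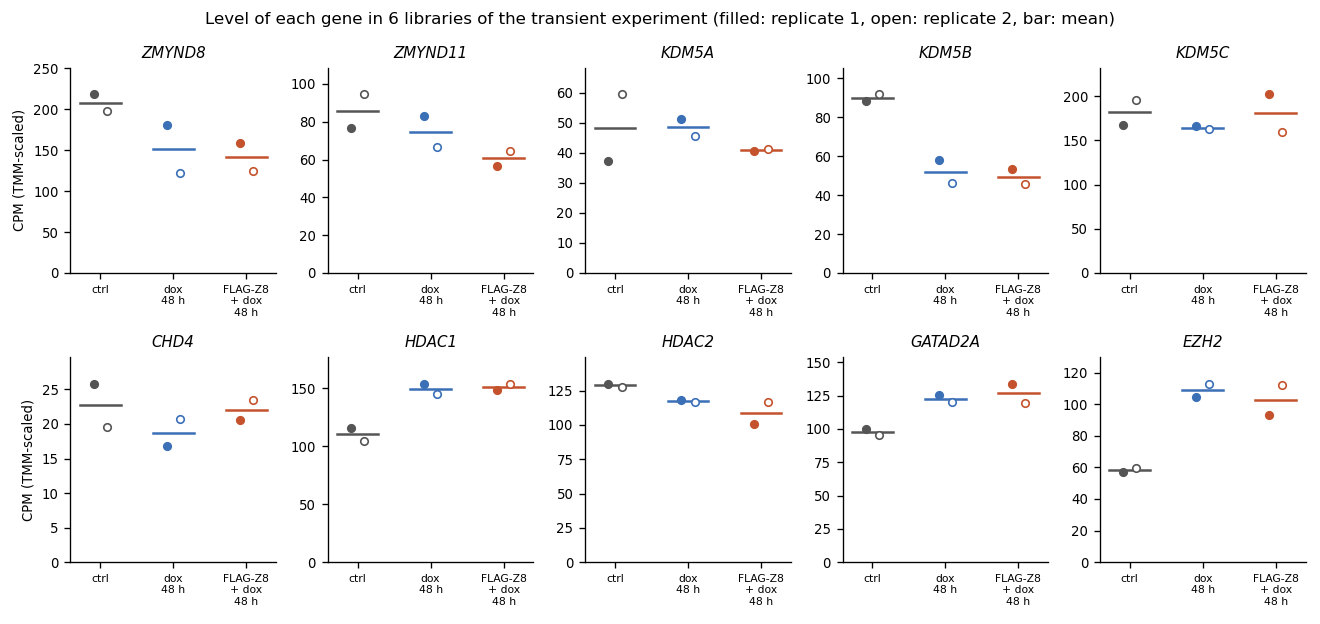
Level of each member (TMM-scaled CPM, vertical axis from 0) in the 6 libraries of the transient experiment, for control cells (ctrl), doxorubicin for 48 h (dox) and the libraries labelled FLAG-ZMYND8 with doxorubicin (FLAG-Z8 + dox). Filled points are replicate 1, open points replicate 2 and bars their mean. ZMYND8 was at 124 and 159 CPM in the libraries labelled FLAG-ZMYND8 and at 122 and 181 CPM with doxorubicin alone.

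In the transient experiment the libraries labelled FLAG-ZMYND8 did not carry more ZMYND8 than those with doxorubicin alone. ZMYND8 measured 218 and 198 CPM in control cells, 181 and 122 CPM with doxorubicin and 159 and 124 CPM in the libraries labelled FLAG-ZMYND8. The treated groups overlapped, and both lay below the control libraries. The log2 difference between the libraries labelled FLAG-ZMYND8 and those with doxorubicin was -0.09 ± 0.23 (95% interval -0.61 to 0.42, adjusted p = 1), and -0.21 without both second libraries. The interval does not include the 6.89-fold difference of the inducible lines at 48 h. In this comparison 0 members were called in either direction, beside 0 and 0 percent of the 15697 genes tested. An unadjusted p of at most 0.05 was reached by 54 genes, and DESeq2 also called 0. These 54 are fewer than a share of 0.05 of the genes tested, the share expected if no gene differed. The fit was thus conservative here. The differences between replicates were correlated across these groups (r = 0.404), and the fit does not pair libraries by replicate number. The counts of 0 therefore do not show that the groups are alike. Leaving out the second libraries of both doxorubicin groups leaves 1 library in each of the groups compared, so only the log2 value of that fit is given.

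With doxorubicin, EZH2 rose here too and KDM5B was lower. EZH2 measured 56.8 and 59.8 CPM in control cells, 105 and 113 CPM with doxorubicin and 93.1 and 112 CPM in the libraries labelled FLAG-ZMYND8, and every treated library lay above both control libraries. Its log2 change over control was 0.90 ± 0.20 for doxorubicin alone (adjusted p = 0.0278), and 0.82 ± 0.20 for the libraries labelled FLAG-ZMYND8 (adjusted p = 0.0328). KDM5B measured 88.4 and 91.7 CPM in control cells, 57.8 and 46.4 CPM with doxorubicin, and 53.2 and 45.8 CPM in the libraries labelled FLAG-ZMYND8. Its changes were -0.80 ± 0.21 (95% interval -1.25 to -0.34, adjusted p = 0.05 after rounding, just above the threshold and not called) and -0.86 ± 0.21 (adjusted p = 0.0331). The first was called with a replicate block (-0.80), RLE factors, DESeq2 (-0.81 in both), no filter or a minimum of 10 counts (-0.79 in both). The second was lost with total counts alone (-0.73).

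With doxorubicin 1 member was called higher and 0 lower, beside 2.98% and 2.13% of all genes, with a median of -0.14 for the members and -0.00 for all genes. In the libraries labelled FLAG-ZMYND8 it was 1 higher and 1 lower, beside 3.85% and 2.97%, with a median of -0.14 against 0.00. None of these calls held without the second libraries of both doxorubicin groups (EZH2 0.85 and 0.66, KDM5B -0.64 and -0.78, for doxorubicin alone and for the libraries labelled FLAG-ZMYND8) or when any library of the groups compared was left out (EZH2 0.66 to 0.95, KDM5B -0.98 to -0.78). Each of these fits leaves 1 library in a group that is compared, and the log2 values kept their direction. The lower limits of the 95% intervals of the other 8 members went down to -0.98 with doxorubicin and the upper limits up to 0.85. ZMYND8 changed by -0.46 (-0.98 to 0.06, adjusted p = 0.281) with doxorubicin, or -0.19 without both second libraries, and HDAC1 by 0.44 (0.03 to 0.85, adjusted p = 0.199), or 0.48 without them. HDAC1 was at 154 and 145 CPM with doxorubicin and 148 and 154 CPM in the libraries labelled FLAG-ZMYND8, above 116 and 105 CPM in control cells. The proliferation list again rose, with 14 of its genes called higher in both comparisons and 0 lower (medians 1.18 and 1.08), beside 2.98% and 3.85% of all genes called higher.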

How the data were processed

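Poly(A) RNA was sequenced in 18 libraries of the MDA-MB-231 line. The authors deposited raw counts of read pairs per gene. According to the headers, featureCounts 1.6.4 took pairs on the reverse strand over exons of GENCODE release 31 (hg38) and left out multi-mapping reads. The paper names TopHat as the aligner and the submitters' processing notes name HISAT2, and the aligner was not settled here. The counts were not normalized before deposition, and 0 columns belonged to samples outside the series. The deposited gene lengths (other unit) were used for TPM.

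Each experiment was fitted apart in edgeR 4.0.16 (R 4.3.3, TMM factors, quasi-likelihood test, one mean per condition) after its filter by expression (minimum count 10, minimum total 15), which left 18801 genes in the inducible and 15697 in the transient experiment. The p-values were adjusted by Benjamini-Hochberg over every gene tested, in place of the cuffdiff test of the study, which needs alignments. The fit was tested on simulated data. For 2 against 2 libraries, the smallest two-sided p of an exact permutation test is 0.333. The p-values measure the spread between these libraries, and the 95% intervals come from the same fit.

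The 10 members and all lists were chosen with earlier results of these data known, so no list is an independent test. All members were named, other list genes only among the 2 called genes that rose most and the 2 that fell most in a comparison, or as targets that the study had examined on chromatin. The 3 genes most like a member were those with the smallest root mean square distance of log2 CPM (prior count 2). Promoter windows came from RefSeq (GRCh38.p14), and all 10 members matched. Alternatives were RLE factors, total counts, DESeq2 1.42.0, other filters, a replicate block, only the groups compared, and leaving out libraries.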

Additional observations from a re-analysis of the deposited data

Results flagged for a closer look

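The response to doxorubicin differed between the GFP line and the ZMYND8 line for 4 of the 10 members, by edgeR's test of the difference itself. Over all genes the difference was called higher for 12.7% and lower for 15.8% at 48 h, and for 7.86% and 5.52% at 6 h, so the members' counts of 4 and 2 of 10 lie close to these shares. For ZMYND8 the log2 response of the ZMYND8 line was higher by 1.01 at 6 h and by 0.64 at 48 h. For GATAD2A it was lower, with a difference of -0.28 at 6 h and -0.67 at 48 h, and GATAD2A rose in the GFP line and was called lower in the ZMYND8 line at 48 h. For EZH2 the difference at 48 h was -0.31, with a rise in both lines. For HDAC2 the difference at 48 h was 0.20. This call was lost without GFP replicate 2, ZMYND8 replicate 1 or ZMYND8 48 h replicate 1 (0.17 in each). The GATAD2A call at 6 h was lost without GFP 6 h replicate 1 or ZMYND8 6 h replicate 1 (-0.22 and -0.20). ZMYND8 counts include any transgene RNA in the ZMYND8 line, and the construct and the line cannot be told apart in any of these differences.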

How the results depend on the processing

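Of 72 called member values, 764 of 819 refits under other settings kept direction and call, 49 lost the call and 6 reversed. Of 68 values that were not called, 32 of 831 refits gained a call and 3 were called in the opposite direction. Scaling by total counts alone moved 48 h values most, by construction, since it drops the TMM factors. It reversed HDAC2 for 48 h against untreated GFP cells (0.0164). It reversed KDM5A (0.0398), KDM5B (0.0535) and GATAD2A (0.0189) for 48 h against 6 h in GFP cells, where 5 members in place of 9 were called. In ZMYND8 cells it reversed KDM5C (0.0536) and HDAC2 (0.18) for 48 h against untreated, and KDM5A (0.22), KDM5B (0.20) and KDM5C (0.0340) for 48 h against 6 h. The ratio of mean TPM, which applies no TMM factors, moved 62 of 120 values by more than their error, and it reversed KDM5A (0.0152) and KDM5B (0.0317) for 48 h against 6 h in GFP cells. Over all genes at 48 h in GFP cells, 50.4% of calls were higher and with total counts 68.0%.

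The interaction at 6 h called 1 to 2 members when a library was left out. With transient doxorubicin, 1 member was called in the main fit, 2 with RLE factors, DESeq2, no filter or a minimum of 10 counts, and 0 without the second library of both doxorubicin groups. Leaving out each library gave 0 to 0. For the libraries labelled FLAG-ZMYND8 against control, the 2 members became 1 with total counts or only the groups compared, 0 to 0 when a library was left out and 0 without both second libraries. The cause of these changes was not tested. Genes called over the whole table went from 803 and 1071 to 1505 and 1774 without a filter. The fits without a library or without both second libraries leave 1 library in a group, so their calls rest on single libraries.

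Replicate numbers are shared by the groups. In the inducible lines the deviations of same-numbered libraries were uncorrelated (r of -0.0458 to 0.0216 over 15 pairs of groups), and in the transient experiment r was 0.208 to 0.404 over 3, with only 2 numbers. With the replicate block, transient doxorubicin called 2 members in place of 1 (KDM5B gained), and 2410 and 2795 genes were called in the whole table. The block also gained KDM5B for the interaction at 48 h (0.19) and ZMYND8 for the libraries labelled FLAG-ZMYND8 against control (-0.57).

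At a total of at most 5972396 counts in 5 of 6 transient libraries, and with 2 libraries per group throughout, the intervals of the transient values are wide, and a value that was not called is not shown to be unchanged.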
